A study of Homo sapiens with 6 samples.

Results

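H3K27me3 was compared between H1299 cells grown without treatment (control) and H1299 cells treated with 5 mM metformin, as domains built from the called intervals of 1 ChIP-seq library per condition. H1299 is a long-established line from a human non-small cell lung carcinoma and lacks p53, and metformin is a biguanide that inhibits mitochondrial complex I and activates AMPK. Per the labels, both cultures were H1299 in the same medium, the chromatin was cross-linked and cut with micrococcal nuclease, and the mark was precipitated with a monoclonal antibody. How long the cells were treated is not given in the sources used here. All 85579 control and 85952 metformin H3K27me3 intervals were used, 171531 of the 275570 intervals in the 4 lists of the series. Domains were defined by the gap between neighbours: intervals less than 5 kb apart were joined. This gave 27945 domains in control cells and 28130 after metformin. The H3K4me3 lists of the same conditions served as an independent second mark. The 2 libraries of input chromatin were not analysed here.

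H3K27me3 is the trimethyl mark that the EZH1 or EZH2 subunit of Polycomb repressive complex 2 places on histone H3. It is read by the CBX subunits of Polycomb repressive complex 1 and by EED, which recruits more of the writing complex, so that the mark spreads along chromatin into blocks over silent developmental genes. H3K4me3, placed by the SET1 and MLL complexes at active promoters, hinders the writing complex, and sites with both marks are known as bivalent.

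With 1 library a side there is no replicate error, no test between the conditions was possible, and no p-value is given. Ranges in brackets after a share are 95% intervals by the exact Clopper-Pearson method, for counting error alone. Depth is unknown, because the lists hold no read counts. The shortest intervals of the control and metformin lists were 159 and 166 bp long, and their smallest gaps 642 and 670 bp. Total covered length was 85.5 Mb (control) and 93.3 Mb (metformin). Numbers, lengths, fusions and place are therefore also given at equal covered length, with the 12857 metformin intervals of lowest value left out. That setting filters a single list, so it is not an even comparison either.

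The number of domains was nearly the same in both lists, while the domains of 10 kb or more in the full metformin list held more sequence. Domains of 10 kb or more numbered 5256 in control cells and 5336 after metformin (1.02 times). They spanned 143 Mb (control) and 150 Mb (metformin), a ratio of 1.06, and the intervals inside them covered 61.4 and 67.8 Mb (1.10 times). The ratio of numbers was larger in longer classes up to 100 kb. From 50 kb upwards there were 529 control and 588 metformin domains (1.11 times), and from 100 kb upwards 113 and 156 (1.38 times). At 200 kb and more the counts were 17 and 20, and the longest domain of all was the control one, at 628 kb against 451 kb. At equal covered length the excesses from 10 kb upwards and from 100 kb upwards were absent. There the metformin list held 4724 domains of 10 kb or more, which spanned 125 Mb (0.881 times control) and covered 59.6 Mb (0.972 times), and 107 domains of 100 kb or more against 113.

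Single intervals with no neighbour within 5 kb made up 49.98% of control and 50.2% of metformin domains. They were short, with medians of 466 and 498 bp, and held 9.49% and 9.47% of the covered length. Domains of 10 kb or more held 71.7% and 72.6% of it. Just above the 10 kb limit, from 10 to 11 kb, lay 461 control and 482 metformin domains, and just under it, from 9 to 10 kb, 542 and 517. Near the joining limit, 4373 control gaps measured 4 to 5 kb and were closed, and 3256 measured 5 to 6 kb and were kept. The metformin numbers were 4307 and 3156.

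Metformin domains were filled slightly more, by intervals that were wider and less dense along the domain. The mean number of intervals per domain of 10 kb or more was nearly the same, 9.34 in control and 9.32 after metformin. Fill is the share of a domain's length that intervals cover. Over all domains of 10 kb or more it was 43.0% in control and 45.0% after metformin, and the median domain was filled to 37.6% (quartiles 28.8 and 47.8) and 38.9% (30.1 and 49.2). The intervals inside had a mean width of 1250 bp in control and 1363 bp after metformin, at 34.4 and 33.0 intervals per 100 kb. Among domains of 10 kb or more, fill was higher in longer classes in both lists. It was 36.4% in control and 37.6% after metformin from 10 to 20 kb, 47.2% and 48.3% from 50 to 100 kb, and 58.9% and 60.4% from 100 kb upwards. The deposited value of the intervals, read as a −log10 q, moved little: its length-weighted mean was 1.71 and 1.73 in domains of 10 kb or more and 1.51 and 1.49 in single intervals. Fill was the higher in the metformin list in each of the 7 length classes and in each setting applied alike to both lists. Equal covered length gave 47.5% against 43.0%, but leaving out intervals of low value raises fill by itself, so that value does not bear on the difference.

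**Figure D1:**
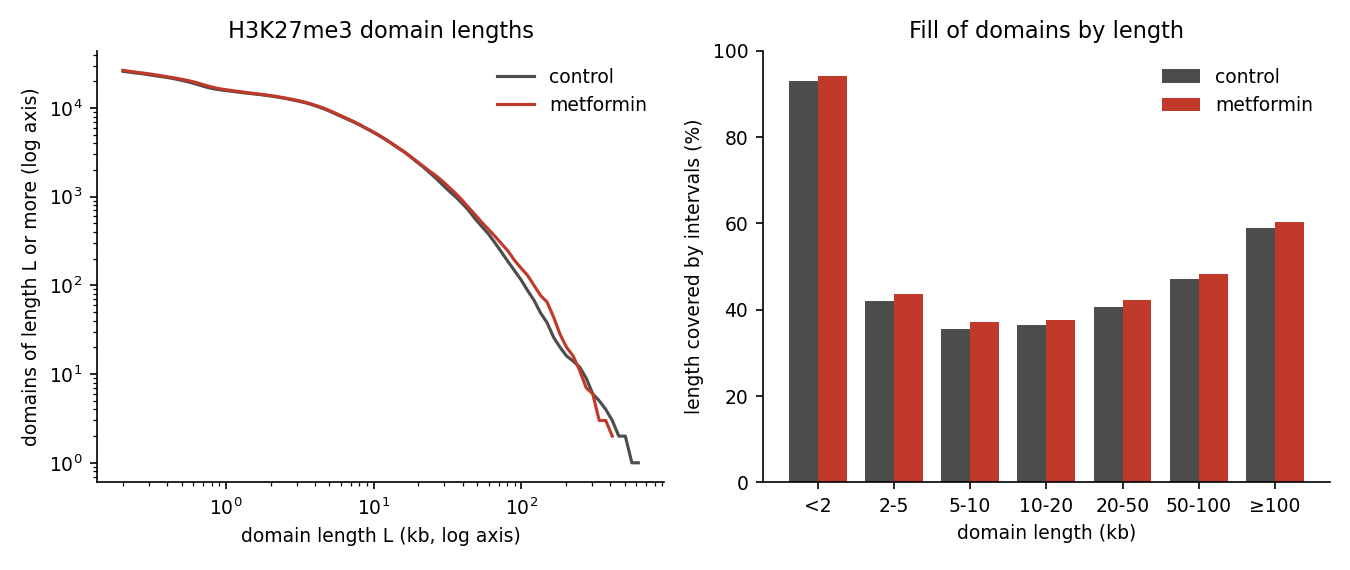
Left, number of H3K27me3 domains of a length L or more against L (kb), both axes logarithmic, for control (grey) and metformin (red). The curves run together up to about 20 kb, the metformin curve lies above at 100 kb (156 against 113 domains), and the control curve reaches farthest, to 628 kb. Right, share of domain length covered by intervals in 7 length classes, 1 library per bar, with no error bars: each metformin bar is slightly above its control bar.

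The longest domains lay in a few places, and their outlines moved although their covered length hardly did. In control cells the longest was chr12:5535233-6163185 (628 kb). It was filled to 74.5% by 132 control intervals and to 75.9% by 114 metformin intervals, but a gap of 7.52 kb divided it into metformin domains of 396 and 231 kb. Next came chr12:2245287-2766045 (521 kb), with 403 kb covered in control and 392.5 kb after metformin. Its metformin counterparts were 195 and 451 kb long, and the second of them, chr12:2446276-2897629, ran past the control end to take in a control domain of 128 kb. It was the longest metformin domain. Then followed chr12:3985288-4425222 (440 kb, 320 kb covered in control and 342 kb after metformin), chr14:70301619-70696256 (395 kb, 252 and 259 kb) and chr12:52907830-53256703 (349 kb, 259 and 280 kb). Of these 5 control domains, 4 lay on chromosome 12.

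Among the 5 longest metformin domains, chr14:70261694-70696688 (435 kb) and chr12:5530653-5926813 (396 kb) matched control domains named above. The other two were chr3:124112955-124445999 (333 kb, 189 kb covered in control and 181 kb after metformin) and chr19:41334510-41664819 (330 kb, 237 and 249 kb). Covered length after metformin, divided by that in control, lay in these 10 domains between 0.958 and 1.08. In the longest domains the covered totals of both lists thus lay within 10% of each other, while the breaks between domains were placed differently.

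Of the 156 metformin domains of 100 kb or more, 81 overlapped a control domain that long, 67 had a longest control partner of 50 to 100 kb, and 8 one of under 50 kb, down to 32.2 kb. Of the 113 control domains, 79, 23 and 11 had such metformin partners, the smallest of 33.3 kb. In the metformin list 61 of the 156 were fusions of control domains. In the control list 27 of the 113 were divided after metformin. Chromosome 12 held the most of them, 17 in control and 22 after metformin. Chromosome 3 held 4 and 12, chromosome 17 held 4 and 11, and chromosome 1 held 8 and 15. Fewer were found after metformin on chromosomes 7 (5 and 4), 11 (7 and 6), 18 (3 and 2) and 19 (7 and 5). Chromosomes 13 and X held none in either list.

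Domains were matched by overlap of at least 1 bp, and each set of domains linked in this way was taken as a group. In the 5985 groups with a domain of 10 kb or more, 51.0% paired 1 control with 1 metformin domain. In 20.8% a single metformin domain joined several control domains, called a fusion here, and in 16.4% a single control domain was divided over several metformin domains. Several domains of each list were linked in 9.82%. Complete absence from a list was rare at this length: 64 control and 61 metformin domains had no partner. The longest of them measured 15954 and 16879 bp. A partner could be a single short interval. Over all lengths, 13111 of 27945 control and 13723 of 28130 metformin domains had no partner. Under 2 kb only 24.3% of control and 21.8% of metformin domains had one. All 2388 control and 2454 metformin domains of 20 kb or more had a partner. Among domains of 10 kb or more the pairing was looser in outline than in presence. A partner that was itself 10 kb or longer was found for 76.8% of the control domains (4038 of 5256, 75.7 to 78.0) and 72.9% of the metformin domains (3890 of 5336, 71.7 to 74.1). From 20 to 50 kb the shares were 90.3% and 89.5%, and from 50 to 100 kb 99.8% in both.

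**Figure D2:**
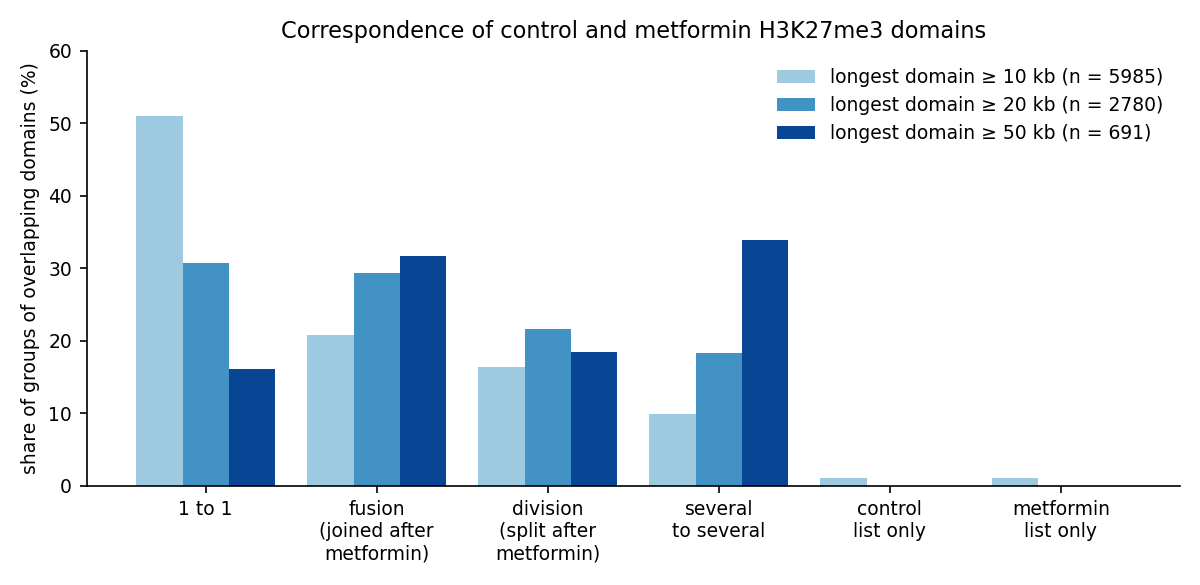
Share (%) of groups of overlapping control and metformin H3K27me3 domains by kind of correspondence, for groups whose longest domain is at least 10, 20 or 50 kb (n = 5985, 2780 and 691 groups). Pairs of 1 domain each fall from 51.0% to 16.1% of groups with length, and fusions are more frequent than divisions in each class (31.7% against 18.4% from 50 kb).

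Fusions outnumbered divisions, 1240 against 978 where the undivided domain was 10 kb or longer, and 488 against 354 where at least 2 of the parts were 5 kb or longer. That order turned at equal covered length, with 889 fusions and 1245 divisions, where intervals of lowest value were left out of the metformin list alone. It held in the settings applied alike to both lists, with 736 against 562 for values of 1.5 or more. For intervals of 500 bp or more there were 961 and 690. What the order depends on was not tested. In the 1242 fusion groups of the full lists, control intervals covered 16.1 Mb and metformin intervals 19.7 Mb (1.22 times). In the 980 divided groups they covered 12.1 and 11.04 Mb (0.909 times). Both ratios include the gaps between the parts, which by definition hold intervals of the undivided list alone. In the 1240 fusions metformin intervals covered 3.17 Mb of such gaps, and in the 978 divisions control intervals covered 2.16 Mb. The direction of these ratios is thus largely built into the sorting and does not show gain or loss outside the gaps. Most joins concerned a pair of parts, 985 of 1240 fusions and 794 of 978 divisions, and the most parts in any of them was 6.

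The gaps at which domains joined or split were alike in size and in how they were bridged. The control gaps closed by fusion numbered 1576, with a median of 6.54 kb (quartiles 5.66 and 7.86). The metformin gaps opened by division numbered 1211, with a median of 6.44 kb (5.61 and 7.85). Of them, 36.4% and 37.99% were under 6 kb, close to the joining limit, and 153 and 122 were 10 kb or longer. An interval that lay wholly inside the gap bridged it in 93.5% of the closed and 94.3% of the opened gaps. In the list where the domain was undivided, intervals filled 28.1% of the closed and 25.1% of the opened gaps, less than the 45.0% and 43.0% of domains of 10 kb or more in those lists.

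The longest fusions with at least 2 parts of 5 kb or more were, after chr14:70261694-70696688 and chr19:41334510-41664819, chr10:102369362-102629534 (260 kb), chr19:40032113-40280300 (248 kb) and chr6:41235286-41466760 (231 kb). On chromosome 14 the control parts of 35.6 and 395 kb were separated by only 5.18 kb, just past the joining limit, and the metformin list held 2 intervals in that gap. On chromosome 19 the first metformin domain joined control parts of 166, 119, 18.6 and 0.756 kb over gaps of 7.43, 7.11 and 7.42 kb. The chromosome 10 domain joined control parts of 18.3, 68.7, 4.46 and 149 kb. It had the largest difference in covered length of the 5, with 83 control intervals over 117 kb and 77 metformin intervals over 144 kb (1.23 times). The second chromosome 19 domain had slightly less covered length after metformin, 204 kb against 207 kb, although it was undivided there. On chromosome 6 the control parts of 66.5 and 159 kb were 7.29 kb apart, and 1 metformin interval bridged the gap with 3.08 kb inside it.

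The longest divisions with such parts were chr12:5535233-6163185 and chr12:3985288-4425222, described above, then chr12:4938879-5225356 (286 kb), chr19:35812963-36001910 (189 kb) and chr1:20486996-20663375 (176 kb). The domain chr12:3985288-4425222 was split at gaps of 6.51 and 5.23 kb into metformin domains of 106, 87.9 and 235 kb, while its covered length was 1.07 times that of control. In chr12:4938879-5225356, the fullest of the 5 (85.4% in control, 82.9% after metformin), a gap of 5.10 kb set off a part of 20.3 kb. The domain on chromosome 19 gave parts of 67.5 and 113 kb and had more covered length after metformin, 121 kb against 115 kb. On chromosome 1 there were 4 metformin parts, of 3.46, 2.48, 72.4 and 71.7 kb, and the covered lengths were 74.6 and 74.1 kb. Division of the longest domains thus came with a covered length between 0.971 and 1.07 times that of control.

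**Figure D3:**
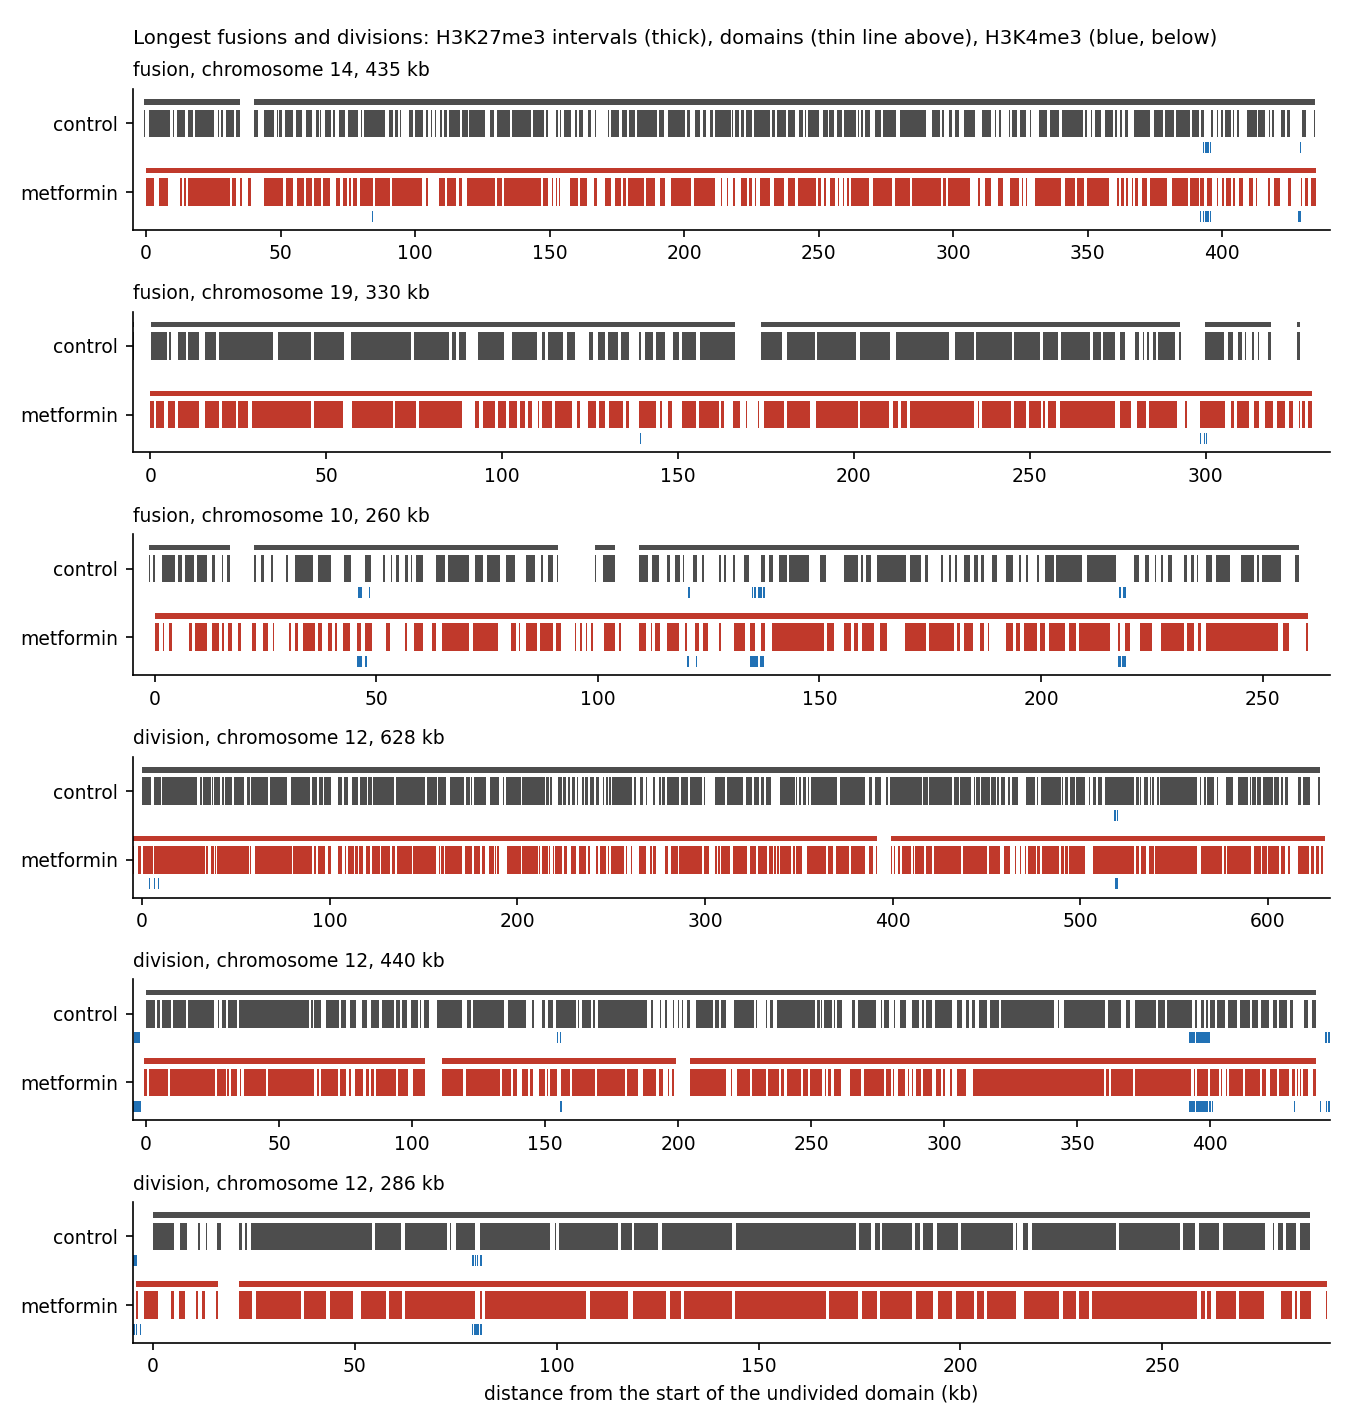
Maps of the 3 longest fusions and the 3 longest divisions that had at least 2 parts of 5 kb or more, as distance (kb) from the start of the undivided domain. Thick blocks are H3K27me3 intervals, thin lines above them are domains, blue blocks below are H3K4me3 intervals, with control in grey and metformin in red. The breaks between domains are narrow (5.10 to 8.24 kb in the domains shown) against domain lengths of 260 to 628 kb.

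Paired domains had a slightly larger covered length after metformin, with a wide spread at short lengths that narrowed with length. The 3050 pairs whose longer member was 10 kb or more had a median ratio of covered length, metformin over control, of 1.12 (quartiles 0.769 and 1.59) and of length of 1.05 (0.760 and 1.53). At equal covered length these medians were 1.03 and 0.948. Covered length was higher after metformin in 59.0% of the pairs (1798 pairs, 57.2 to 60.7). Among the 111 pairs of 50 kb or more the ratio of covered length was 1.09 (0.975 and 1.17), and it was above 1 in 72.1% (80 pairs, 62.8 to 80.2). Their length ratio was 1.01 (0.970 and 1.07), and their fill was 55.2% in control and 58.7% after metformin, with 2496 and 2378 intervals. Pairs are by definition groups without fusion or division, and only 111 of the 691 groups of 50 kb or more were pairs. Of the edges of these pairs 26.6% lay within 1 kb of each other, and their median shift was 2064.5 bp.

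A difference of 1.5 times or more in covered length is used below to sort the pairs. It was reached by 855 pairs with more covered length after metformin, 28.0% of the 3050, and by 576 pairs with more in control, 18.9%. It was largely a matter of short domains: of the 111 pairs of 50 kb or more, 1 passed it upwards and 0 downwards. Edges were imprecise. Of the 6100 edges of the 3050 pairs, 1380 (22.6%) lay within 1 kb of each other in both lists, the median shift was 2681 bp, and 53.6% of the edges that moved lay farther out after metformin.

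The extreme pairs were domains of under 20 kb in one list with a single short interval in the other. The lowest ratios were those of chr9:122785965-122803589 (7.65 kb covered by 7 control intervals and 0.167 kb by 1 metformin interval), chr10:44331849-44343242 (4.64 and 0.179 kb) and chr3:15210243-15223191 (5.60 and 0.252 kb). The highest were those of chr1:111299884-111311742 (0.165 kb by 1 control interval and 5.05 kb by 4 metformin intervals), chr5:151230942-151244686 (0.161 and 4.30 kb) and chr8:120678878-120693737 (0.197 and 5.01 kb). None of these 6 regions held H3K4me3 in either list.

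The longest domains with no partner were sparse chains of short intervals. In control cells they were chr1:5895919-5911872 (5 intervals over 15.95 kb, 25.5% filled), chr10:44281435-44296567 (6 intervals, 21.9%) and chr14:56207253-56222017 (7 intervals, 16.5%). After metformin they were chr5:16354468-16371346 (5 intervals over 16.9 kb, 16.4% filled), chr11:64378576-64394691 (6 intervals, 19.96%) and chr4:8286118-8301253 (5 intervals, 27.4%). The longest interval in any of them was 1.75 kb. Each of the 6 was filled less than the lower quartile of domains of 10 kb or more in its list.

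H3K4me3 was scarce inside the domains and less scarce at their borders. Control H3K4me3 intervals lay at 9.08 per Mb inside control domains of 10 kb or more, counted by their midpoints, at 17.7 per Mb in the 10 kb on either side, and at 18.1 per Mb over the whole span of the lists. After metformin the densities were 14.3, 22.2 and 19.1 per Mb. Within the domains H3K4me3 did not favour the gaps between H3K27me3 intervals: it lay at 8.39 per Mb of gap and 9.99 per Mb of covered sequence in control, and at 12.1 and 17.1 per Mb after metformin. Of 43814 gaps inside control domains, 1.47% (1.355 to 1.58) held H3K4me3 of the same condition, and of 44382 metformin gaps 2.19% (2.06 to 2.34). With the H3K4me3 lists exchanged these shares were 1.87% and 1.80%, both between the values given above. The H3K4me3 intervals that overlapped domains were narrower than others, with median widths of 402 bp in control and 423 bp after metformin, against 521 and 530 bp more than 10 kb away. Widths of 2 kb or more were reached by 57 of 1342 (4.25%) and 137 of 2244 (6.11%) of those inside, against 15.0% and 17.0% of those farther away.

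Gaps closed by fusion, and pairs with more covered length after metformin, held H3K4me3 more often than gaps opened by division and pairs with more covered length in control, whichever H3K4me3 list was used. With the control H3K4me3 list, 68 of 1576 gaps closed by fusion (4.31%, 3.37 to 5.44) held H3K4me3, against 23 of 1211 gaps opened by division (1.90%, 1.21 to 2.84). With the metformin list the shares were 5.08% (4.05 to 6.28) and 2.23% (1.47 to 3.23). Among pairs, control H3K4me3 lay in 13.1% of the 855 with more covered length after metformin (112 pairs, 10.9 to 15.5). It lay in 3.82% of the 576 with more in control (22 pairs, 2.41 to 5.73). The metformin H3K4me3 list gave 14.9% (12.5 to 17.4) and 4.17% (2.69 to 6.14). Pairs within 1.5 times stood at 13.4% and 15.8%, close to the pairs with more covered length after metformin, although they spanned a median of 18.4 kb against 14.1 and 14.2 kb. Domains of 5 kb or more without a partner followed the same order, at 3.71% (2.50 to 5.28) of 782 metformin domains and 1.71% (0.886 to 2.97) of 702 control domains with the control H3K4me3 list, although here the intervals overlapped.

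The order was spread over chromosomes. With the control H3K4me3 list, the share was higher for pairs with more covered length after metformin (pairs up) than for pairs with more in control (pairs down) on 18 of 23 chromosomes and lower on 3, and higher for closed than for opened gaps on 17 and lower on 5. The metformin H3K4me3 list gave 18 and 3 for pairs and 16 and 7 for gaps. The intervals of both shares also lay apart at equal covered length, with 13.3% (10.8 to 16.1) and 3.56% (2.36 to 5.13) for pairs and 4.92% (3.70 to 6.40) and 1.98% (1.36 to 2.78) for gaps. The direction was the same under all 8 alternatives, but the intervals often overlapped. Leaving out 92 to 93 Mb of chromosome 2 did not change these counts of gaps and pairs. It is thus no further check, though it is counted below among the alternatives with intervals apart. For gaps the intervals lay apart under 3 alternatives and overlapped under 5. The 5 were joining under 2 kb or under 10 kb, values from 1.5, overlaps from 1 kb and domains from 20 kb. Gaps stood at 5.87% (4.56 to 7.42) and 4.27% (3.04 to 5.81) with joining under 10 kb, and at 3.34% (2.49 to 4.39) and 2.20% (1.42 to 3.26) with joining under 2 kb. For pairs the intervals lay apart under 6 alternatives and overlapped under 2. These were joining under 2 kb, with 9.88% (5.86 to 15.4) of 172 and 2.63% (0.320 to 9.18) of 76 pairs, and pairs of 20 kb or more, with 16.03% (10.2 to 23.5) of 131 and 10.96% (4.85 to 20.5) of 73. These intervals take domains as independent. H3K4me3 itself covered more sequence in the metformin list than in the control list in pairs of each class (1.61, 1.48 and 1.23 times for pairs up, within and down). In pairs down it covered only 30.2 and 37.2 kb. The whole metformin H3K4me3 list was also larger, with 53454 against 50585 intervals, so the rise need not be particular to these pairs.

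**Figure D4:**
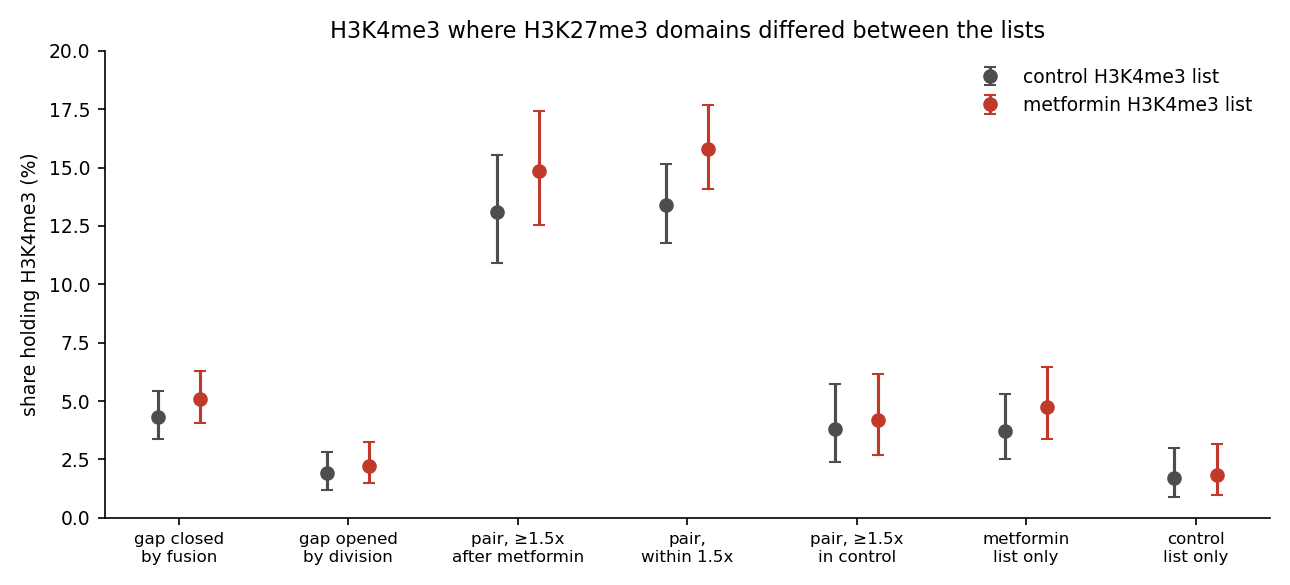
Share (%) of H3K27me3 gaps and domains that hold an H3K4me3 interval of the control (grey) or metformin (red) list, with exact 95% intervals for counting error. Gaps closed by fusion (4.31% and 5.08%) lie above gaps opened by division (1.90% and 2.23%), and pairs with at least 1.5 times the covered length after metformin (13.1% and 14.9%) above those with that excess in control (3.82% and 4.17%). The last classes are domains of 5 kb or more found in a single list.

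The domains were spread unevenly over the genome, with the same extremes in both lists. Span here is the sequence between the outermost intervals of all 4 lists, less the longest empty stretch, which was taken as the divide between the arms. Domains of 10 kb or more took up 15.0% of the span of chromosome 20 in control cells and 15.99% after metformin, the highest of chromosomes 1 to 22 and X. The lowest was X, with 0.477% and 0.606%, followed by chromosome 13, with 0.751% and 0.758%. The median chromosome stood at 5.26% and 5.44%. Chromosome 12 had the highest fill (54.6% and 56.3%), and the lowest was that of chromosome 13 in control (29.7%) and of X after metformin (33.7%). Fill was higher after metformin on all 23 chromosomes.

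In the full lists, length in domains was larger after metformin on 22 of the 23 chromosomes, from 1.01 times on chromosome 19 to 1.27 times on X, which held only 41 and 44 domains. Chromosome 18 was the exception, with 3.94 Mb (control) and 3.85 Mb (metformin), a ratio of 0.977. Fusions outnumbered divisions on 19 chromosomes, most of all on chromosome 17 (56 against 25, or 2.24 fusions per division). They were fewer on chromosomes 9 (62 against 66), 13 (10 against 11) and 19 (25 against 33, or 0.758), and equal on chromosome 4 (30 and 30). At equal covered length both orders turned: length was larger after metformin on 1 chromosome (X, 1.12 times), and fusions outnumbered divisions on 2 (17, 39 against 32, and X, 16 against 9) and were fewer on 20. Among pairs of the full lists, the median ratio of covered length was highest on chromosome 13 (1.41, 28 pairs) and lowest on chromosome 5 (0.958, 186 pairs), the only chromosome with a median below 1.

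The share of span in domains was highest in the outermost 5 Mb of the arms and lowest more than 40 Mb from their ends. Arm ends were the outermost intervals, and divides the longest empty stretches, down to 1.65 Mb on chromosome 15. They need not be chromosome ends or centromeres. In the outermost 5 Mb, domains took up 6.36% of the span in control and 7.04% after metformin (1.11 times as much length). More than 40 Mb from the end they took up 3.95% and 4.25% (1.08 times). Between these the shares did not follow distance. They ran from 5.79% to 6.19% in control and from 5.93% to 6.43% after metformin, with ratios of 1.02 to 1.04. The outermost 5 Mb had 136 fusions and 89 divisions (1.53 per division), against 1.09 to 1.38 per division in the other distance classes. At equal covered length the outermost 5 Mb had 0.934 times the control length and 0.867 fusions per division, still the highest of the classes, which otherwise ran from 0.859 to 0.893 times and from 0.620 to 0.789 per division.

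**Figure D5:**
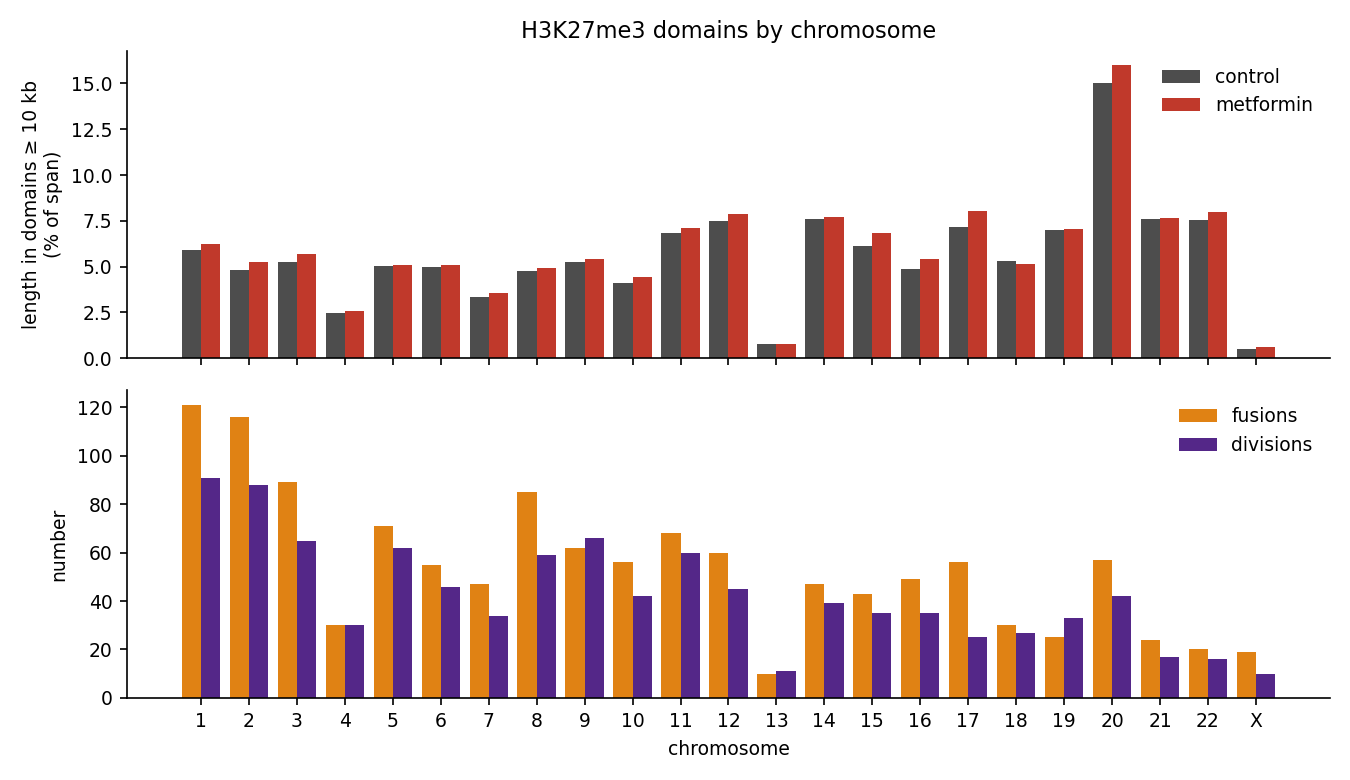
Top, length in H3K27me3 domains of 10 kb or more as a share (%) of each chromosome's span, for control (grey) and metformin (red). Bottom, number of fusions (orange) and divisions (purple) by chromosome, 1 comparison of 2 libraries, with no error bars. Chromosome 20 is densest (15.0% and 15.99%), X and 13 are lowest (under 1%), and fusions exceed divisions on 19 of 23 chromosomes in these full lists, against 2 of 23 at equal covered length.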

How the data were processed

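The deposited intervals belong to 1 library each, per the labels. Per the submitters' processing notes, the tools were Trimmomatic 0.38, MACS2 and Bowtie, on hg19 (GRCh37); their options are not given. The deposited value per interval was read as a −log10 q from its lower limit, near q = 0.1 in the H3K27me3 lists. Sub-peaks of H3K4me3 that share an interval were merged. Positions are 1-based on hg19.

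Domains, groups of overlapping domains, fill and gaps were computed with Python 3.11.15, numpy 2.4.6, pandas 2.3.3 and scipy 1.17.1, and plots drawn with matplotlib 3.10.9. The code was tested on simulated data. Pairs enter by their longer member and fusions and divisions by the undivided domain, from 10 kb.

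The members and rules were chosen with earlier results of these data known. Named regions are the 5 longest domains per list, the 5 longest fusions and divisions with at least 2 parts of 5 kb, the 3 longest unpartnered domains per list, the 3 highest and lowest pairs by ratio of covered length, and the extreme chromosomes. Genes were not placed, since the available gene table follows GRCh38.p14, and no sequence was read.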

Additional observations from a re-analysis of the deposited data

How the results depend on the processing

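Values are given as control, then metformin, or fusions (pairs up), then divisions (pairs down). No paired analysis was possible because each condition had 1 library, and for the same reason no sample was left out. Results on domains of 100 kb or more and on H3K4me3 at fusions, divisions and pairs were added after seeing the data. Of 146 values under 8 alternatives, 75 stayed within limits and 1 reversed. The limits were the main value's counting interval for shares, 1.5 times for counts and 1% for ratios and fill. Each value was judged alone, and only a ratio could be labelled reversed. A turn in the order of fusions and divisions, or of control and metformin values, is therefore not counted there. Some of the 75 could not change, such as control numbers, fill and gaps at equal covered length, so the tally is no measure of robustness. With intervals joined under 2 kb, domains of 10 kb or more numbered 2481 and 2678 (12 and 11 of 100 kb or more), fill was 65.8% and 68.0%, partners of 10 kb were found for 66.5% and 60.9%, 1.26% and 1.99% of gaps held H3K4me3, the ratio of covered length was 1.08, and control H3K4me3 lay in 3.34% of closed and 2.20% of opened gaps and in 9.88% of pairs up and 2.63% of pairs down. With joining under 10 kb, fill was 30.9% and 32.6%, partners 78.0% and 75.04%, gaps with H3K4me3 1.70% and 2.45%, the length ratio 1.02, domains of 100 kb or more 504 and 544, and H3K4me3 lay in 5.87% and 4.27% of closed and opened gaps and in 16.7% of pairs up. With intervals of value 1.5 or more, there were 2848 and 2904 domains (23 and 30 of 100 kb or more), filled to 52.9% and 55.8%, partners for 65.7% and 61.6%, gaps with H3K4me3 at 2.07% and 2.94%, 736 fusions and 562 divisions, a length ratio of 1.08, and H3K4me3 in 5.64% of closed gaps and 10.8% of pairs up. With intervals of 500 bp or more, fill was 51.4% and 53.0%, partners 73.3% and 66.4%, gaps with H3K4me3 1.68% and 2.49%, the length ratio 1.10, and domains of 100 kb or more 48 and 73. At equal covered length, metformin fill was 47.5%, partners 68.5% and 77.4%, metformin gaps with H3K4me3 2.34%, and the ratio of covered length 1.03. The length ratio reversed to 0.948 in that setting, in which only metformin intervals were left out. From 20 kb upwards there were 2388 and 2454 domains, filled to 45.7% and 47.8%, with metformin partners at 71.7%, metformin gaps with H3K4me3 at 1.98%, 814 fusions, 602 divisions, ratios of 1.02 (length) and 1.098 (covered length), and H3K4me3 in 16.03% of pairs up and 10.96% of pairs down. The causes of these moves, the reversal included, were not tested. An overlap of 1 kb or more, or leaving out 92 to 93 Mb of chromosome 2, moved none of the values past those limits. The overlap limit cannot change numbers of domains, fill or gaps inside domains. With it there were 932 fusions and 691 divisions, against 1240 and 978, which is within the limit of 1.5 times for counts. Fusions outnumbered divisions in every setting except equal covered length (889 and 1245). There, in runs added after seeing the data, 1 chromosome had more domain length after metformin and 2 had more fusions than divisions, and of the 5 Mb windows 138 had more and 310 less. Read depth is unknown and limits what a missing interval shows.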

Other observations

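Across windows of 5 Mb, the difference in length within domains of 10 kb or more had both signs. Of 454 windows with such domains in either list, 282 held more after metformin and 172 less (138 and 310 at equal covered length), and the differences summed to 13.6 Mb upwards and 5.63 Mb downwards. The domains were concentrated: 79 windows held 50% of the control domain length and 80 windows that of the metformin list. The windows below were named after their values were seen. The densest, 0 to 5 Mb of chromosome 12, held 2351 kb in domains in control and 2365 kb after metformin. The largest excess after metformin lay at 125 to 130 Mb of chromosome 3, with 902 and 1120 kb in domains, 389 and 506 kb covered inside these domains, 12 fusions and 6 divisions. Next came 85 to 90 Mb of chromosome 16 (726 and 940 kb), with 10 fusions and 3 divisions. At 70 to 75 Mb of chromosome 15 (640 and 845 kb) there were 7 and 5. For 30 to 35 Mb of chromosome 20 (530 and 723 kb) the numbers were 3 and 2. A smaller excess lay at 40 to 45 Mb of chromosome 1, with lengths of 239 and 427 kb, 9 fusions and 1 division.

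The largest deficit lay at 150 to 155 Mb of chromosome 5, with 926 kb in domains in control and 775 kb after metformin. It held 15 divisions and 2 fusions, and 388 and 368 kb were covered inside these domains. All intervals of the window, those outside such domains included, covered 455 kb (control) and 478 kb (metformin). At 100 to 105 Mb of chromosome 2 the domains measured 268 and 148 kb, with 80.7 and 49.5 kb covered inside them, while all intervals of the window covered 151 and 155 kb. In both windows the covered length inside domains of 10 kb or more was lower after metformin, and that of all intervals was not. Other windows with deficits of more than 100 kb were mixed. At 40 to 45 Mb of chromosome 3 (727 and 601 kb in domains) all intervals covered 360 and 353 kb. At 5 to 10 Mb of chromosome 6 they covered 260 and 243 kb. They covered more after metformin at 25 to 30 Mb of chromosome 19 (260 and 280 kb) and 125 to 130 Mb of chromosome 11 (382 and 405 kb).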
